A study of Arabidopsis thaliana with 16 samples.

Results

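The genes described here encode the cytosolic ribosomal proteins P0 and L3 to L19 of the large (60S) ribosomal subunit in mature dry seeds of Arabidopsis thaliana. They were chosen by locus identifier from the protein family names, with no use of their measured values, and comprise 59 of the 37336 loci in the count tables, grouped in 21 protein families. RNA was profiled by 3′RNA-Seq, in which oligo(dT) priming yields reads near the 3′ end of each polyadenylated transcript, with 4 libraries from each of 4 genotypes. The genotypes were the double mutant brm-3dog1-4, both single mutants, brm-3 and dog1-4, and the wild type Col-0. The brm-3 allele is a T-DNA insertion in BRM, the catalytic ATPase of a SWI/SNF chromatin remodeling complex, used because a knockout of the gene is sterile. The dog1-4 allele is an insertion in DOG1, a regulator of seed dormancy, and brm-3dog1-4 carries both. All plants were grown in soil under long days, and the seeds were kept dry at room temperature after harvest. The design calls the 4 libraries of a genotype biological replicates, while the seed lots behind them and the length of storage are not given in the sources used here.

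Each cytosolic large subunit holds 1 copy of most of these proteins, whereas Arabidopsis encodes nearly every one of them in several near-identical genes, so the level of a protein family is the sum over its paralogues. The proteins bind ribosomal RNA in the nucleolus, and the finished subunit is exported to the cytosol. Dry seeds hold stored mRNAs, those for ribosomal proteins among them, that were made during maturation and are available when the seed takes up water. In plants, promoters of ribosomal protein genes are known for telo boxes and site II elements.

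Stretches upstream of 8 genes are shown because the results below turn on these genes, namely the L10 pair that moved in opposite directions, an L11 pair of which 1 gene rose, the L12 pair with unequal changes, and the L15 and L17 genes with large increases. Each stretch ends at the base before the annotated start and reaches back to the nearest annotated locus, or to 250 bases. The sequences come from RefSeq (TAIR10.1), are written 5′ to 3′ on the strand of the gene, and have telo boxes (AAACCCTA) and site II elements (TGGGCC or TGGGCT) in capitals, also where they lie on the opposite strand.
RPL10A, AT1G14320, chr1:4887934-4888113, plus strand: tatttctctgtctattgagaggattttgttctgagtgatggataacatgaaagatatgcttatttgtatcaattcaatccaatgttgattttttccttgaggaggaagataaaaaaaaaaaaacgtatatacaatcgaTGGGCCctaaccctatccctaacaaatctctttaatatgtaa
RPL10C, AT1G66580, chr1:24838840-24839089, plus strand: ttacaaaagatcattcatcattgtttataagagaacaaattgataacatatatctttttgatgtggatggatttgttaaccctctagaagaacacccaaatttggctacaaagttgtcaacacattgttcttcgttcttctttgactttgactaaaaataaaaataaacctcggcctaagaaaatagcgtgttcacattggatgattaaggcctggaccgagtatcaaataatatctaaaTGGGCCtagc
RPL16B, AT4G18730, chr4:10302074-10302162, plus strand: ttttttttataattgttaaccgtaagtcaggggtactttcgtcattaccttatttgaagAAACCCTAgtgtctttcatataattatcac
RPL16A, AT2G42740, chr2:17791583-17791691, plus strand: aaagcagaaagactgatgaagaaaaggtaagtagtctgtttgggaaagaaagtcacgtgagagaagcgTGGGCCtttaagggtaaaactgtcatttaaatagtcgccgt
AT2G37190, chr2:15620157-15620256, minus strand: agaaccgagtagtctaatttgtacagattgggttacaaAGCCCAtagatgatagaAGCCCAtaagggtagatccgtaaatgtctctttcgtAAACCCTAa
AT3G53430, chr3:19810521-19810654, minus strand: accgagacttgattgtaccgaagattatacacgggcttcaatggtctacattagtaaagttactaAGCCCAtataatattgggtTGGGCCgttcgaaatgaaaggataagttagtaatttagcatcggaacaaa
AT4G16720, chr4:9401409-9401658, minus strand: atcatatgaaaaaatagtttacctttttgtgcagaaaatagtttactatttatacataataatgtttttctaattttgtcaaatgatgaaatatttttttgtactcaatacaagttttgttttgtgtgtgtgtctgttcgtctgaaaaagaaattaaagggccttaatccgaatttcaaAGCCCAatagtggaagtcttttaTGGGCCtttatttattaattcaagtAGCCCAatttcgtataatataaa
AT1G27400, chr1:9515051-9515113, plus strand: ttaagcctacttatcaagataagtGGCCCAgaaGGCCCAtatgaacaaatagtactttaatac

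Within 250 bases upstream of the annotated start, searched on both strands with overlapping matches counted separately, 47 of the 59 genes (79.7%) held a site II element, against 19.2% of all 27443 protein-coding genes. A telo box was found upstream of 15 genes (25.4%), against 4.49% of all, and 13 genes (22.0%) held both, against 1.36%. In the L10 pair, the only match of RPL10A began 42 bases before the start and that of RPL10C 10 bases before it, both TGGGCC. RPL16B held a telo box and no site II element, RPL16A held a second match, a telo box 198 bases before its start inside a neighbouring locus, and AT2G37190 held a telo box 9 bases before its start with 2 TGGGCT elements further upstream. With 50 bases downstream of the start added to the window, the share with a telo box was 54.2% of the 59 genes and 6.22% of all genes. These are matches of letters, and whether any of them is bound was not measured.

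The libraries held between 803578 and 2359673 counts, the fewest in dog1-4 replicate 2 and, among brm-3dog1-4 libraries, in replicate 3. Levels are given as CPM, that is counts relative to the library total, with library totals corrected by TMM (trimmed mean of M-values), and 3 counts amounted to 0.964 to 3.87 CPM, depending on the library. DOG1 had a mean of 3.15 ± 1.63 CPM in brm-3dog1-4 and 3.52 ± 1.34 CPM in dog1-4, against 104 ± 14.3 CPM in brm-3 and 100.3 ± 15.2 CPM in Col-0 (SD, n = 4 each). BRM had 12.7 ± 3.98 CPM in brm-3dog1-4 and 11.8 ± 4.51 CPM in brm-3, against 30.97 ± 8.33 CPM in dog1-4 and 27.99 ± 6.12 CPM in Col-0 (SD, n = 4 each), so both targeted genes were low in the libraries labelled as their mutants. Seed storage and oil body genes, which mark mature seeds, were abundant in every library, with 10.96% ± 1.09 of the counts in brm-3dog1-4, 10.2% ± 0.687 in brm-3, 12.3% ± 1.20 in dog1-4 and 10.9% ± 1.05 in Col-0 (SD, n = 4 each). Within the last 300 bases of the annotated transcripts, the 50-base windows were unique to the locus for all of the 59 genes except AT1G74050. There, 10.4% of the windows also occurred in a paralogue. This describes the annotated sequence, and the reads themselves were not examined. Of the 59 genes, 15 overlap an annotated locus on the opposite strand, and the use of strand in counting is not given in the sources used here.

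The 59 genes together took a larger share of the counts in both genotypes that carry dog1-4. The share was 0.578%, 0.643%, 0.435% and 0.598% in brm-3dog1-4, 0.197%, 0.247%, 0.187% and 0.216% in brm-3, 0.380%, 0.344%, 0.294% and 0.358% in dog1-4, and 0.207%, 0.192%, 0.178% and 0.218% in Col-0, in the order of replicates 1 to 4. All brm-3dog1-4 libraries lay above all dog1-4 libraries, and these above all libraries of brm-3 and Col-0, which overlapped. The mean share was 0.563% ± 0.0900 in brm-3dog1-4, 0.212% ± 0.0262 in brm-3 and 0.344% ± 0.0368 in dog1-4, against 0.199% ± 0.0172 in Col-0 (SD, n = 4 each). The exact (Clopper-Pearson) 95% binomial intervals of single libraries, which cover counting error only, were narrow beside these gaps, for example 0.422% to 0.448% in brm-3dog1-4 replicate 3, the lowest of its genotype. After TMM scaling the summed level was 4442 ± 516 CPM in brm-3dog1-4, 2403 ± 230.2 CPM in brm-3 and 3422 ± 181 CPM in dog1-4, against 2303 ± 136 CPM in Col-0 (SD, n = 4 each). As the RNA came from whole seeds, fewer cells of a type and less RNA per cell cannot be told apart.

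**Figure D1:**
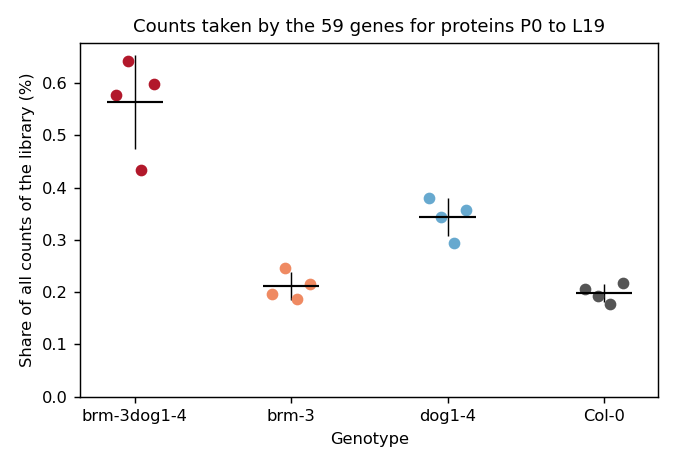
Share of all counts of a library, in percent, taken by the 59 genes in each genotype. Points are libraries, horizontal bars means and vertical bars SD (n = 4); the brm-3dog1-4 libraries lie between 0.435% and 0.643%, the dog1-4 libraries between 0.294% and 0.380%, and the Col-0 libraries between 0.178% and 0.218%.

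Of the 59 genes, 52 passed the filter on low counts and were tested among 10251 genes by the quasi-likelihood test of edgeR. The p-values were adjusted over all of them by the Benjamini-Hochberg method, with a call at an adjusted p under 0.05. In brm-3dog1-4 against Col-0, 46 of the 52 were higher, where 22.8% of all tested genes were, and 1 was lower, where 23.3% of all were. The median log2 fold change was 1.12 over the 52 genes and 0.01 over all tested genes, and 31 of the 52 were higher with a log2 fold change over 1, against 10.5% of all. All 4 brm-3dog1-4 libraries lay above all 4 Col-0 libraries for 44 of the 52 genes, against 19.9% of all genes. Without brm-3dog1-4 replicate 3, the library of its genotype with the lowest levels, 47 were higher and the median was 1.17. The 5 genes that were not called were AT3G11250 (P0), RPL16A and AT3G58700 (L11), AT4G13170 (L13a) and RPL18AA (L18a), and RPL10C was the gene that fell.

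In dog1-4 against Col-0, 36 of the 52 genes were higher (9.84% of all tested genes were) and 1 was lower (8.58% of all), with a median log2 fold change of 0.61, against 0.00 over all genes. Of the 36, 7 had a log2 fold change over 1, against 4.20% of all, and 33 of the 52 genes did not overlap, with all dog1-4 libraries above all Col-0 libraries, against 10.2% of all. The count over 1 was 4 without dog1-4 replicate 1. In brm-3 against Col-0, 1 of the 52 was higher (5.22% of all) and 0 were lower (5.02% of all), and the median was 0.02, with 0.00 over all genes. That gene was AT4G17390, which encodes L15. It had 27.3, 40.6, 31.7 and 31.7 CPM in brm-3, against 19.2, 25.2, 26.5 and 20.6 CPM in Col-0, a log2 fold change of 0.55 with no overlap (adjusted p = 0.0295, edgeR). The call was lost without brm-3 replicate 2, Col-0 replicate 1 or Col-0 replicate 4 and with DESeq2, by which 0 genes were called.

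Values of other gene groups also differed between genotypes, and not all of them followed the order of the ribosomal genes. A list of 5 leaf and green silique genes summed to 92.7 ± 24.1 CPM in brm-3dog1-4 (64.8 to 115), 29.2 ± 2.62 CPM in brm-3 (26.7 to 32.9) and 45.8 ± 8.37 CPM in dog1-4 (36.1 to 53.4), against 11.3 ± 3.10 CPM in Col-0 (7.32 to 14.5; SD, n = 4 each). Most of it was RBCS1A, a small subunit of Rubisco, at 80.1 CPM in brm-3dog1-4, 24.5 CPM in brm-3 and 35.6 CPM in dog1-4, against 8.74 CPM in Col-0, and 2 of the 5 genes passed the filter. AT2G39730, the other gene that passed, had 12.2 CPM in brm-3dog1-4, 4.03 CPM in brm-3 and 9.98 CPM in dog1-4, against 2.12 CPM in Col-0. The LHCB1 genes of the list did not follow it and had at most 2 counts in a library. AT1G29930 had 0.27, 0.60, 0.20 and 0.46 CPM and AT1G29920 had 0.10, 0.15, 0 and 0 CPM, in the same order of genotypes. AT3G01500, a carbonic anhydrase of leaf chloroplasts, was at 0 in every library of brm-3, dog1-4 and Col-0. Transcripts of the chloroplast and mitochondrial genomes took 0.956% ± 0.180 of the counts in brm-3dog1-4, 0.923% ± 0.202 in brm-3 and 0.877% ± 0.157 in dog1-4, against 0.499% ± 0.0302 in Col-0 (SD, n = 4 each). The 11 seed storage and oil body genes summed to 87117 ± 10839 CPM in brm-3dog1-4 (73160.4 to 97939), 115994 ± 12599 CPM in brm-3 (103446 to 133358) and 123475 ± 21613 CPM in dog1-4 (104654 to 147552), against 127609 ± 18817 CPM in Col-0 (105860 to 150996; SD, n = 4 each), with brm-3dog1-4 alone below all Col-0 libraries on this scale. Of these genes, AT2G40170, which encodes a late embryogenesis abundant protein, had 5751 ± 1085 CPM in brm-3dog1-4, 17954 ± 1162 CPM in brm-3 and 12323 ± 1716 CPM in dog1-4, against 24659 ± 3083 CPM in Col-0 (SD, n = 4 each), a log2 fold change of -2.10 in brm-3dog1-4. The log2 fold changes of the other listed seed genes in brm-3dog1-4 ran from -1.23 for AT1G03880 to 0.86 for AT4G27170. AT5G44120 (0.34) and AT4G27150 (0.11) were also positive, and the rest were negative. The part of any of these gene groups in the ribosomal results was not tested.

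**Figure D2:**
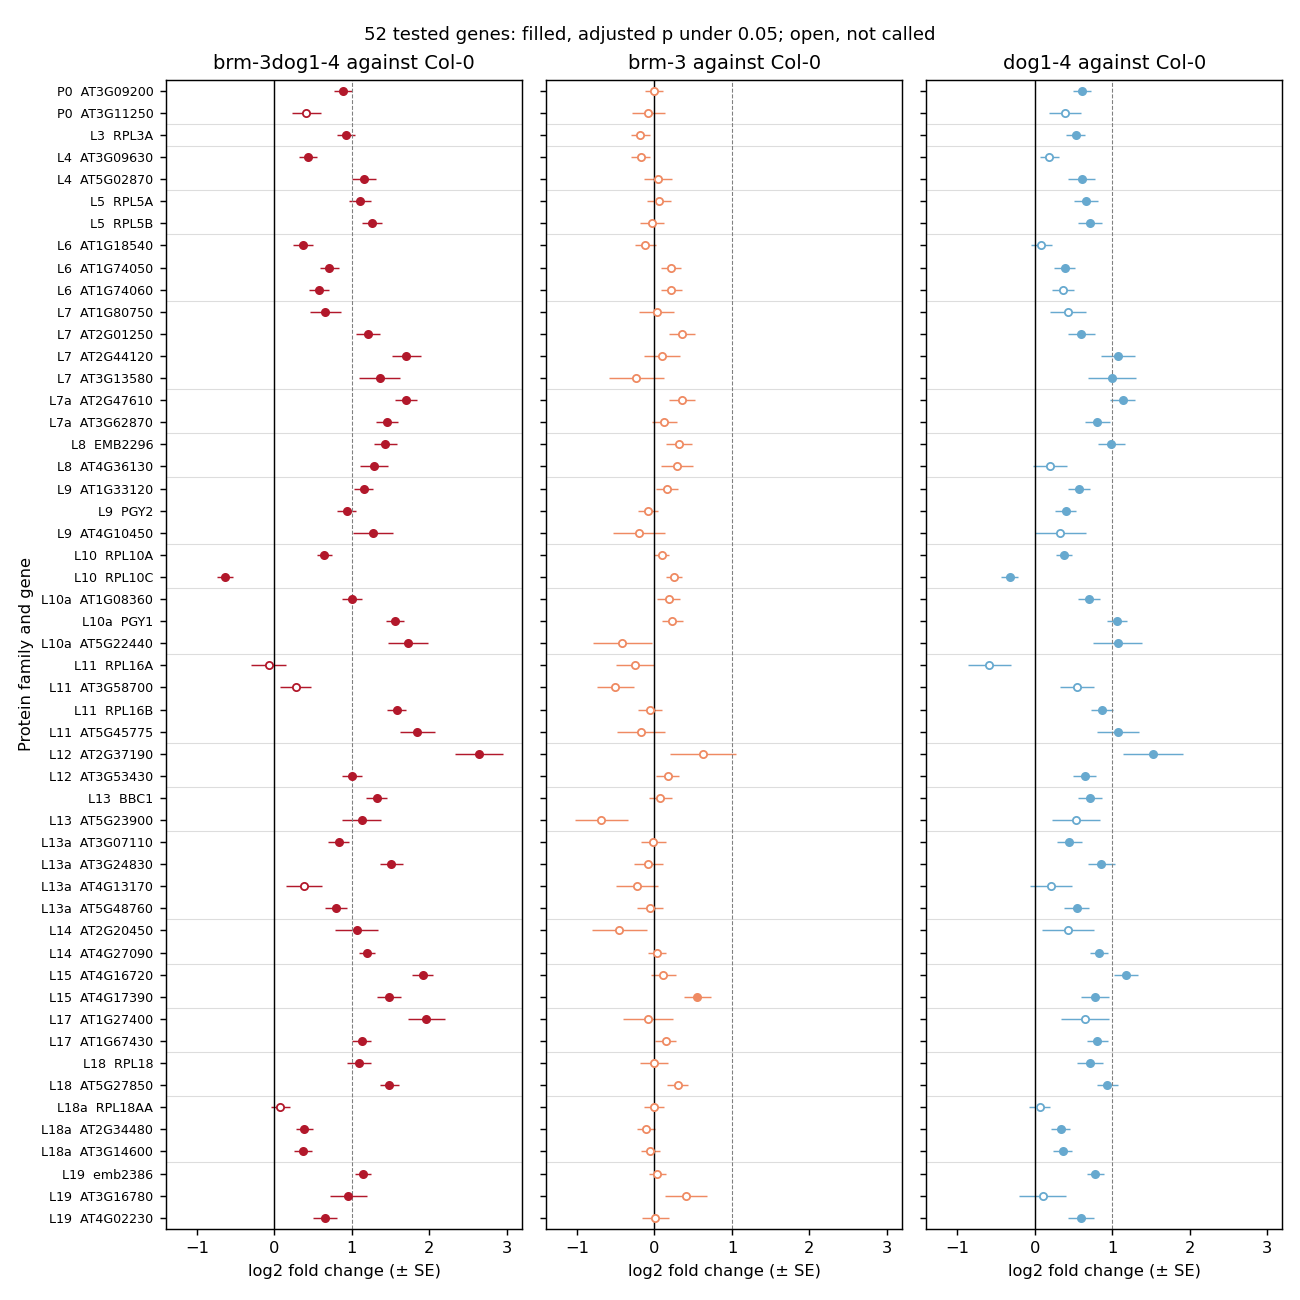
Log2 fold change against Col-0 (± SE) of the 52 tested genes, by protein family, in brm-3dog1-4, brm-3 and dog1-4. Filled points passed an adjusted p of 0.05: 46 higher and 1 lower in brm-3dog1-4, 1 higher in brm-3, and 36 higher and 1 lower in dog1-4; the dashed line marks a log2 fold change of 1.

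The stalk base of the large subunit, where translation factors dock, is formed by P0 and L12. The main P0 gene, AT3G09200, had 228, 239, 184 and 288 CPM in brm-3dog1-4, 107, 144, 108 and 150.5 CPM in brm-3, 215, 212, 182 and 176 CPM in dog1-4, and 132, 133, 115 and 132 CPM in Col-0. All libraries of brm-3dog1-4 and dog1-4 lay above those of Col-0, with a log2 fold change of 0.89 ± 0.11 in brm-3dog1-4 (SE, adjusted p = 4.5e-09) and 0.61 ± 0.12 in dog1-4 (adjusted p = 8.6e-05, both edgeR). Of the L12 genes, AT2G37190 had the largest fold change of the 52 genes in both mutants. It had 24.4, 30.8, 9.64 and 33.1 CPM in brm-3dog1-4, 7.51, 5.46, 4.78 and 8.23 CPM in brm-3, 13.04, 7.74, 10.6 and 15.3 CPM in dog1-4, and 3.03, 3.26, 2.41 and 7.72 CPM in Col-0. These fold changes rest on low counts, with 6, 4, 3 and 12 in the Col-0 libraries and 21, 6, 13 and 20 in those of dog1-4. The brm-3dog1-4 libraries lay above those of Col-0, although replicate 3 was far below the other 3, and the log2 fold change was 2.64 ± 0.30 in brm-3dog1-4 (adjusted p = 1.0e-09) and 1.53 ± 0.39 in dog1-4 (SE, adjusted p = 0.0033, both edgeR). Its paralogue AT3G53430, the more abundant one, had 68.4, 68.7, 61.3 and 73.3 CPM in brm-3dog1-4, 36.2, 41.3, 41.8 and 34.7 CPM in brm-3, 50.3, 50.3, 58.6 and 54.2 CPM in dog1-4, and 26.7, 38.2, 32.2 and 41.1 CPM in Col-0. It rose by 1.00 ± 0.13 on the log2 scale in brm-3dog1-4 (SE, adjusted p = 4.1e-09, edgeR), again with no overlap with Col-0.

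Proteins L3, L8 and L10 lie near the peptidyl transferase centre, where peptide bonds are made. RPL3A, the dominant L3 gene, had 170.3, 177, 132 and 189.6 CPM in brm-3dog1-4, 69.0, 85.5, 60.3 and 99.9 CPM in brm-3, 133, 117, 142 and 122 CPM in dog1-4, and 95.4, 88.7, 82.8 and 89.4 CPM in Col-0. Its libraries of brm-3dog1-4 and dog1-4 both lay above those of Col-0, by a log2 fold change of 0.92 (adjusted p = 1.4e-09) and 0.53 (adjusted p = 0.00092, both edgeR). Of the L8 genes, EMB2296, named for the embryo defect of its mutant, rose by 1.43 in brm-3dog1-4 and 0.99 in dog1-4 on the log2 scale. AT4G36130, the other L8 gene tested, rose by 1.28 in brm-3dog1-4, while in dog1-4 its value was 0.20 (adjusted p = 0.60, edgeR).

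The L10 genes moved in opposite directions. L10 is among the last proteins to join the subunit, and in Arabidopsis RPL10A is also known from signalling by the receptor kinase NIK1 in antiviral defence. RPL10A had 232, 246, 192 and 231 CPM in brm-3dog1-4, 137, 167, 161 and 152 CPM in brm-3, 188, 216, 180.0 and 175 CPM in dog1-4, and 143, 146, 146 and 146 CPM in Col-0. It was above Col-0 in every library of brm-3dog1-4 and dog1-4, with a log2 fold change of 0.64 ± 0.10 (adjusted p = 1.4e-07) and 0.38 ± 0.10 (SE, adjusted p = 0.0051, both edgeR). RPL10C, also named SAG24 as a gene of senescing tissue, had 80.4, 109, 86.7 and 95.9 CPM in brm-3dog1-4, 179, 170.5, 180.4 and 168 CPM in brm-3, 102, 133, 119 and 118 CPM in dog1-4, and 146, 159.5, 135 and 144 CPM in Col-0. It lay below Col-0 in all libraries of brm-3dog1-4 and dog1-4 and above Col-0 in all libraries of brm-3. Its log2 fold change was -0.64 ± 0.11 in brm-3dog1-4 (adjusted p = 6.9e-07), -0.32 ± 0.11 in dog1-4 (adjusted p = 0.028) and 0.26 ± 0.10 in brm-3 (SE, adjusted p = 0.10, edgeR throughout). The size of the decrease of RPL10C and its call depended on the scaling of the libraries. With library size alone the median of all tested genes was 0.58 in brm-3dog1-4 and 0.22 in dog1-4, and RPL10C stood at -0.07 (adjusted p = 0.56) and -0.10 (adjusted p = 0.57, both edgeR), below the median of all genes in both. The call in dog1-4 was also lost without dog1-4 replicate 1, Col-0 replicate 1 or Col-0 replicate 2.

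**Figure D3:**
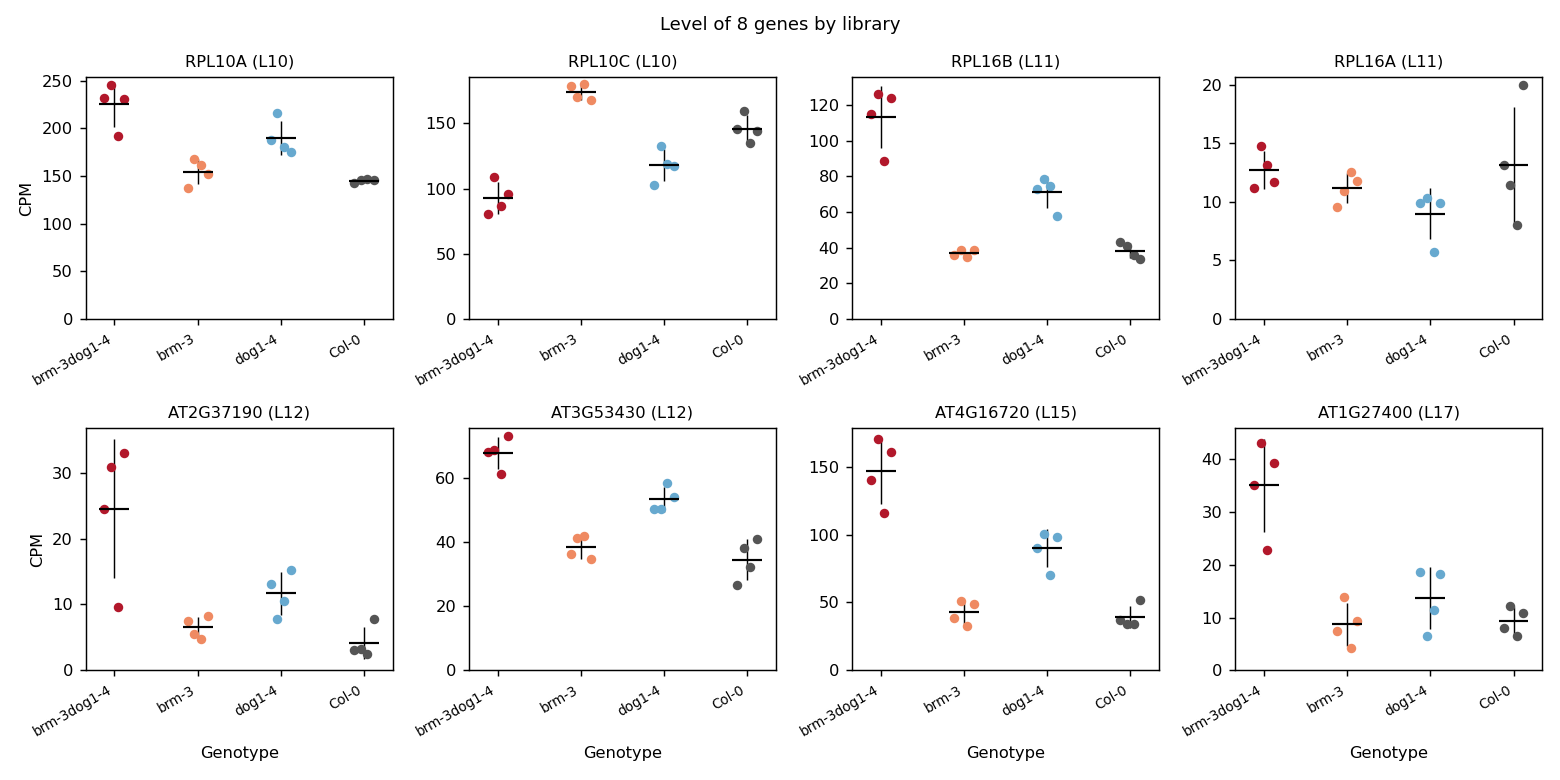
Level in CPM of 8 genes in each library of brm-3dog1-4, brm-3, dog1-4 and Col-0, with the mean (horizontal bar) and SD (vertical bar, n = 4). RPL10A lies between 192 and 246 CPM in brm-3dog1-4, against 143 to 146 CPM in Col-0, and RPL10C between 80.4 and 109 CPM in brm-3dog1-4, against 135 to 159.5 CPM in Col-0.

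L5 and L11 form, with the 5S ribosomal RNA, a particle that is built into the subunit as a unit. Both L5 genes, which are known for leaf shape and cell number phenotypes of their mutants, rose, RPL5A by 1.10 and RPL5B by 1.26 on the log2 scale in brm-3dog1-4, and by 0.67 and 0.72 in dog1-4. The 4 L11 genes differed among themselves. RPL16B, the dominant one and an L11 gene in spite of its symbol, had 115, 127, 88.5 and 124 CPM in brm-3dog1-4, 36.2, 38.8, 34.6 and 38.8 CPM in brm-3, 73.3, 78.7, 74.9 and 58.0 CPM in dog1-4, and 43.4, 40.7, 36.2 and 33.4 CPM in Col-0. It rose without overlap, by 1.58 ± 0.13 in brm-3dog1-4 (adjusted p = 2.2e-16) and 0.87 ± 0.14 in dog1-4 (SE, adjusted p = 2.8e-06, both edgeR) on the log2 scale. RPL16A, its paralogue, had 11.2, 14.8, 13.1 and 11.7 CPM in brm-3dog1-4, 9.56, 10.9, 12.5 and 11.8 CPM in brm-3, 9.93, 10.3, 5.70 and 9.92 CPM in dog1-4, and 13.1, 11.4, 8.04 and 19.9 CPM in Col-0. Each mutant overlapped with Col-0, while all brm-3dog1-4 libraries lay above all dog1-4 libraries, and the log2 fold change against Col-0 was -0.07 ± 0.22 in brm-3dog1-4 (adjusted p = 0.82) and -0.58 ± 0.27 in dog1-4 (SE, adjusted p = 0.14, both edgeR). Of the other two, AT5G45775 rose by 1.85 in brm-3dog1-4 and 1.07 in dog1-4, and AT3G58700 had 0.28 (adjusted p = 0.27) and 0.55 (adjusted p = 0.069, both edgeR).

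L4 and L17 line the tunnel through which the new protein leaves the ribosome. The L17 gene AT1G27400 had 35.2, 43.0, 22.8 and 39.3 CPM in brm-3dog1-4, 7.51, 13.95, 4.18 and 9.40 CPM in brm-3, 18.6, 6.45, 11.4 and 18.3 CPM in dog1-4, and 8.07, 12.2, 6.43 and 10.9 CPM in Col-0. Only in brm-3dog1-4 did its libraries stand clear of Col-0, with a log2 fold change of 1.96 ± 0.24 (adjusted p = 2.2e-09), against 0.65 ± 0.31 in dog1-4 (SE, adjusted p = 0.15, both edgeR). Its counts were low, with 30, 5, 14 and 24 in dog1-4 and 16, 15, 8 and 17 in Col-0. Without both shallowest libraries, 1 of them dog1-4 replicate 2, it was called higher in dog1-4 (0.80, adjusted p = 0.044, edgeR). AT1G67430, the more abundant L17 gene, rose by 1.13 in brm-3dog1-4 and 0.81 in dog1-4. In the L4 pair, AT5G02870 rose by 1.15 in brm-3dog1-4 and 0.61 in dog1-4, and AT3G09630, the dominant gene, rose by 0.43 in brm-3dog1-4 (adjusted p = 0.0019) and had 0.19 in dog1-4 (adjusted p = 0.33, both edgeR).

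Mutants in genes for L9, L10a and L5 are known as piggyback mutants, which change leaf polarity in Arabidopsis. PGY1, which encodes L10a, had 196, 198, 145 and 203 CPM in brm-3dog1-4, 64.9, 80.1, 66.3 and 86.4 CPM in brm-3, 140.3, 155, 116 and 125 CPM in dog1-4, and 67.6, 56.2, 54.7 and 73.3 CPM in Col-0. Its log2 fold change was 1.56 ± 0.12 in brm-3dog1-4 (adjusted p = 3.6e-17) and 1.06 ± 0.13 in dog1-4 (SE, adjusted p = 1.6e-09, both edgeR), with no overlap in either. The least abundant L10a gene, AT5G22440, rose by 1.72 in brm-3dog1-4 (adjusted p = 1.2e-07) and 1.07 in dog1-4 (adjusted p = 0.011, both edgeR). It had 11, 6, 9 and 5 counts in Col-0 and 20, 7, 10 and 17 in dog1-4, so these fold changes rest on low counts. Its call in dog1-4 was lost with DESeq2 (adjusted p = 0.064), without dog1-4 replicate 1 (adjusted p = 0.056) and without Col-0 replicate 4 (adjusted p = 0.055). PGY2, which encodes L9, rose by 0.94 in brm-3dog1-4 (adjusted p = 7.4e-09) and 0.40 in dog1-4 (adjusted p = 0.028, both edgeR). Its call in dog1-4 was lost with DESeq2 (adjusted p = 0.087), without dog1-4 replicate 1 or 2, without Col-0 replicate 2 or 4, and without both shallowest libraries, with an adjusted p of 0.072 to 0.13 over these edgeR fits.

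L15, the family with the largest change, is a protein of the subunit core, and its dominant gene, AT4G16720, had 140.4, 171, 116 and 161 CPM in brm-3dog1-4, 38.2, 51.0, 32.8 and 48.8 CPM in brm-3, 90.0, 101, 70.0 and 98.5 CPM in dog1-4, and 37.3, 34.2, 33.8 and 51.4 CPM in Col-0. The libraries of brm-3dog1-4 and dog1-4 all lay above Col-0, with a log2 fold change of 1.91 ± 0.14 (adjusted p = 1.4e-16) and 1.17 ± 0.15 (SE, adjusted p = 4.5e-08, both edgeR). The L7a gene AT2G47610 rose by 1.70 and 1.14 and the L7 gene AT2G44120 by 1.70 and 1.08 on the log2 scale, in brm-3dog1-4 and dog1-4 in this order. The highest gene in brm-3dog1-4 was emb2386, an embryo-defective gene for L19, a protein at the bridge between both subunits. It had 277, 329, 283 and 323 CPM in brm-3dog1-4, 119, 158, 140.4 and 143 CPM in brm-3, 259, 216, 219 and 246 CPM in dog1-4, and 160.5, 131, 119.8 and 133 CPM in Col-0. It rose by 1.15 in brm-3dog1-4 and 0.78 in dog1-4. The 3 L18a genes were at the low end, with 0.39 for AT2G34480, 0.37 for AT3G14600 and 0.08 for RPL18AA in brm-3dog1-4, of which the first 2 passed the test, and the call of AT2G34480 was lost without Col-0 replicate 3. RPL18AA had 59.2, 69.7, 70.1 and 59.9 CPM in brm-3dog1-4, against 58.0, 70.8, 52.3 and 63.7 CPM in Col-0, and overlaps another annotated locus on the same strand.

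Most families drew the bulk of their counts from 1 gene, and by group means that gene was the same in all 4 genotypes for 19 of the 21 families. Because a 3′ tag is read once per transcript whatever its length, levels of different genes are set side by side here without correction for length. In Col-0 the highest genes were RPL10C at 146 CPM, RPL10A at 145 CPM and emb2386 at 136 CPM. The libraries of RPL10C (135 to 159.5 CPM) and emb2386 (119.8 to 160.5 CPM) spanned those of RPL10A (143 to 146 CPM), so this order does not exceed their spread. In brm-3dog1-4 the highest were emb2386 at 303 CPM, AT3G09200 at 235 CPM and RPL10A at 225 CPM, and RPL10C, the highest in Col-0, was number 22. The share of the leading gene in brm-3dog1-4 ranged from 36.1% in L13a to 98.5% in L3. The L19 family drew 83.8% of its counts from emb2386 in brm-3dog1-4, 78.8% in brm-3 and 82.8% in dog1-4, against 80.2% in Col-0. In L13a, AT3G24830 led in every brm-3dog1-4 library, though narrowly in replicate 4, and AT3G07110 led in every library of brm-3 and Col-0. In dog1-4 the leading gene by mean share was AT3G07110, but AT3G24830 was ahead in replicates 1 and 4. The change of leading gene was thus particular to brm-3dog1-4 only by group means.

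Within families the shares shifted for some paralogues, described here without a test. Of 56 shares with a count, 7 were higher and 9 lower in all brm-3dog1-4 libraries than in all Col-0 libraries, 2 were higher and 4 lower in dog1-4, and 1 was higher and 0 were lower in brm-3. Shares of a family sum to the whole, so these are not independent, and both L4 genes or RPL10A and RPL10C mirror each other. Among the 7 was AT2G40010, with 3, 5, 2 and 1 counts in brm-3dog1-4. No such counts were made for other gene families, so there is no rate to set these beside. The largest shift was in L10. RPL10A took 74.0%, 69.0%, 68.9% and 70.6% of the L10 counts in brm-3dog1-4, 43.3%, 49.6%, 47.2% and 47.4% in brm-3, 64.6%, 61.9%, 60.2% and 59.6% in dog1-4, and 49.5%, 47.7%, 52.0% and 50.1% in Col-0. Its mean share was 20.8 percentage points higher in brm-3dog1-4 and 11.7 points higher in dog1-4 than in Col-0. A share within a family does not depend on how libraries are scaled. In L12 the dominant AT3G53430 took 69.3%, 64.1%, 81.4% and 65.3% in brm-3dog1-4, against 84.1%, 92.2%, 93.0% and 83.1% in Col-0, so that brm-3dog1-4 replicate 3 came close to the Col-0 range. In L11 the share of RPL16B was 62.9%, 59.4%, 62.0% and 61.9% in brm-3dog1-4, against 48.9%, 49.5%, 49.5% and 43.7% in Col-0, while that of AT3G58700 was 11.3 points lower. In L4 the share of AT5G02870 was 10.0 points higher in brm-3dog1-4 and 6.24 points higher in dog1-4 than in Col-0, with no overlap in either.

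**Figure D4:**
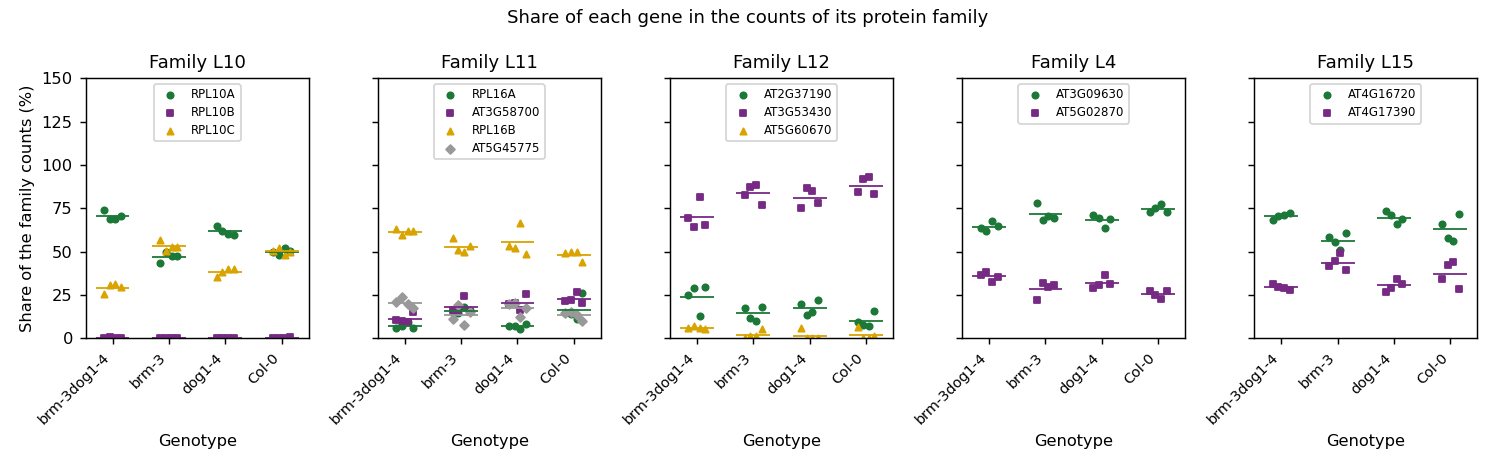
Share, in percent, of each gene in the counts of its protein family for L10, L11, L12, L4 and L15, by genotype. Points are libraries and bars are means (n = 4); in L10 the share of RPL10A lies between 68.9% and 74.0% in brm-3dog1-4, against 47.7% to 52.0% in Col-0.

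Family sums were tested in a table in which each family replaced its genes. In brm-3dog1-4 against Col-0, 20 of 21 sums were higher, 14 of them with a log2 fold change over 1, and the median was 1.19. In dog1-4, 19 were higher, 1 of them over 1, with a median of 0.70, and in brm-3 0 passed the test, with values from -0.19 to 0.30 and a median of 0.06. Among the 10251 genes tested singly, 22.8% were higher in brm-3dog1-4 (10.5% over 1) and 9.84% in dog1-4 (4.20% over 1). In brm-3, 5.22% of these were higher and 5.02% lower. The L15 sum changed most, with 206, 243, 162 and 223 CPM in brm-3dog1-4, 65.5, 91.6, 64.4 and 80.5 CPM in brm-3, 123, 142, 107 and 144 CPM in dog1-4, and 56.4, 59.4, 60.2 and 71.9 CPM in Col-0. Its log2 fold change was 1.77 ± 0.12 in brm-3dog1-4 (adjusted p = 2.1e-18) and 1.05 ± 0.13 in dog1-4 (SE, adjusted p = 8.6e-09, both edgeR). The L10 sum was the exception in both mutants, with 313, 357, 279 and 327 CPM in brm-3dog1-4, 316, 338, 341 and 319.6 CPM in brm-3, 291, 349, 299 and 293 CPM in dog1-4, and 288, 305, 281 and 291 CPM in Col-0. These values overlapped with Col-0 in brm-3dog1-4 and dog1-4, with a log2 fold change of 0.14 ± 0.09 (adjusted p = 0.22) and 0.07 ± 0.10 (SE, adjusted p = 0.66, both edgeR). With library size alone the L10 sum was higher by 0.70 in brm-3dog1-4 and 0.29 in dog1-4, and passed the test in both, where the median of all genes was 0.58 and 0.22. With at least 10 counts required in every library it was called higher in brm-3dog1-4, at 0.25 (adjusted p = 0.013, edgeR). L4 was the other sum that was not called in dog1-4 (0.31, adjusted p = 0.071, edgeR), and L18a had the smallest called change in brm-3dog1-4 (0.31, adjusted p = 0.0059, edgeR).

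The families were closer to one another in level in brm-3dog1-4 than in Col-0. The highest family mean was 3.67 times the lowest in brm-3dog1-4 (L19 at 362 ± 24.6 CPM and L12 at 98.5 ± 16.4 CPM), 7.17 times in brm-3 and 4.67 times in dog1-4, against 7.41 times in Col-0 (L10 at 291 ± 10.1 CPM and L12 at 39.3 ± 7.91 CPM; SD, n = 4 each). The coefficient of variation over the 21 family means was 32.8% in brm-3dog1-4, 59.4% in brm-3 and 42.1% in dog1-4, against 58.1% in Col-0. These are descriptions over families, with no test.

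**Figure D5:**
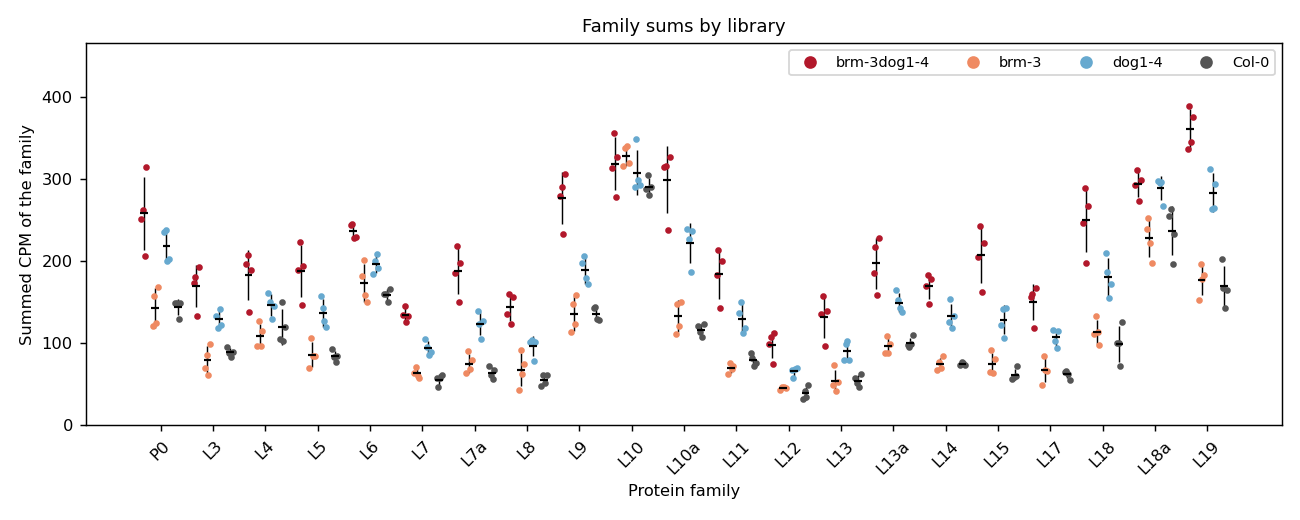
Summed CPM of each of the 21 protein families in each library of brm-3dog1-4, brm-3, dog1-4 and Col-0, with means (horizontal bars) and SD (vertical bars, n = 4). The L10 sums overlap, between 279 and 357 CPM in brm-3dog1-4 against 281 to 305 CPM in Col-0, while those of L15 do not, at 162 to 243 CPM against 56.4 to 71.9 CPM.

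The double mutant was also compared with each single mutant. Against brm-3, 49 of the 52 genes were higher in brm-3dog1-4 (18.5% of all tested genes were) and 1, RPL10C, was lower (19.7% of all), with a median of 1.01, and 26 were higher with a log2 fold change over 1 (6.88% of all). Against dog1-4, 32 were higher (12.1% of all) and 1, again RPL10C, was lower (15.4% of all), with a median of 0.44. AT4G36130 (1.08), AT2G37190 (1.12) and AT1G27400 (1.31) were higher with a log2 fold change over 1 (3.75% of all), and these were 5 genes without brm-3dog1-4 replicate 3 or dog1-4 replicate 4. The libraries of RPL10C overlapped between both, and its call was lost with DESeq2 and without brm-3dog1-4 replicate 1, dog1-4 replicate 2 or dog1-4 replicate 3. These comparisons share the brm-3dog1-4 libraries with those against Col-0.

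The interaction asked whether the change in brm-3dog1-4 differed from the sum of the changes in brm-3 and dog1-4 on the log2 scale. It was positive and called for 6 of the 52 genes (1.95% of all tested genes) and negative and called for 1 (6.84% of all), with a median of 0.39, against -0.01 over all genes. The genes with the smallest p were RPL16B (0.76 ± 0.19, adjusted p = 0.0060), RPL10C (-0.57 ± 0.15, adjusted p = 0.0086), AT1G27400 (1.40 ± 0.40, adjusted p = 0.021), PGY2 (0.62 ± 0.18, adjusted p = 0.022) and RPL3A (0.57 ± 0.17, SE, adjusted p = 0.025, all edgeR). The number of positive calls depended on single libraries, with 1 without brm-3 replicate 3, 2 without brm-3 replicate 1, 11 without brm-3 replicate 2, 2 without brm-3dog1-4 replicate 4, 10 without brm-3dog1-4 replicate 3, and 3 without Col-0 replicate 1 or replicate 4.

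The 7 genes that failed the filter were rare paralogues. AT3G51190 (L8), AT3G48960 (L13) and AT2G47570 (L18) had 0 counts in all 16 libraries, which allows up to 3 counts in each. AT5G60670, an L12 gene, had 14, 24, 5 and 14 counts in brm-3dog1-4, 0, 1, 1 and 4 in brm-3, 6, 0, 0 and 0 in dog1-4, and 4, 0, 0 and 1 in Col-0. RPL3B had 7, 11, 1 and 8 counts in brm-3dog1-4, against 1, 0, 1 and 1 in Col-0, and AT2G40010 (P0) had 3, 5, 2 and 1 in brm-3dog1-4, against 0 in each Col-0 library. RPL10B, the third L10 gene, had 9 counts over the brm-3dog1-4 libraries, 1 over brm-3, 2 over dog1-4 and 2 over Col-0. At 1 to 24 counts these differences were not tested.

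Loci for other cytosolic 60S proteins, L21 to L41 and P1 to P3, were also listed, 78 in all. Every locus of L21 and L26 was left out, because their annotated products named no ribosomal protein. The remaining 72 genes, with 62 tested, were counted beside the genes for P0 to L19. In brm-3dog1-4 against Col-0, 55 were higher (22.8% of all tested genes) and 2 lower (23.3% of all), with a median log2 fold change of 1.08. In brm-3, 1 was higher (5.22% of all) and 1 lower (5.02% of all), with a median of 0.11. In dog1-4, 43 were higher (9.84% of all) and 0 lower (8.58% of all), with a median of 0.70. In these promoters a site II element was found in 63.9% and a telo box in 26.4%. Of the 46 genes that rose in brm-3dog1-4 among P0 to L19, 36 held a site II element and 10 a telo box, and of the 6 others that were tested, all held a site II element and 2 a telo box. The median log2 fold change in brm-3dog1-4 was 1.03 over the 42 tested genes with a site II element and 1.31 over the 10 without, a description that says nothing of the factors that bind these elements.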

How the data were processed

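For each library, the table the authors deposited holds raw read counts by locus. The submitters' processing notes name STAR 2.7.8a, DESeq2 and TAIR10, and the counting program, use of strand and molecular identifiers are not given in the sources used here. The 59 genes and all lists were chosen with earlier results of these data known. edgeR 4.0.16 (R 4.3.3) was used with TMM, filterByExpr by genotype and robust quasi-likelihood tests, in one fit of all 16 libraries with a mean per genotype, on 10251 of 21204 loci with a count. SE was taken as the absolute log2 fold change divided by the square root of F. The genes named are the most abundant of each family, the 5 largest called changes in each mutant, the 5 smallest p of the interaction and those failing the filter. Others, among them RPL16A, RPL18AA and AT5G02870, were named after their values were seen. Fits were run on simulated data with equal numbers of genes raised and lowered, so these runs do not bear on the scaling of the libraries. Alternatives were RLE, upper-quartile and other TMM scaling, filters, DESeq2 1.42.0, pairs of groups, a replicate block, leave-one-out and a fold threshold. Promoters and names came from TAIR10.1 (RefSeq).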

Additional observations from a re-analysis of the deposited data

Results flagged for a closer look

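In 10 of 204 sets of 4 libraries of 1 genotype, 1 library stood apart from the other 3 by Dixon's criterion, and chance flags about 1 in 20 such sets. The value that stood apart was 145 CPM for PGY1 and 239 CPM for the L10a sum in brm-3dog1-4 replicate 3, and 85.5 CPM for AT5G27850 in brm-3 replicate 2. In dog1-4 it was 83.1 CPM for AT1G67430 and 78.2 CPM for the L8 sum in replicate 3, 349 CPM for the L10 sum in replicate 2 and 267 CPM for the L18a sum in replicate 4. In Col-0 it was 115 CPM for AT3G09200 and 129 CPM for the P0 sum in replicate 3, and 7.72 CPM for AT2G37190 in replicate 4.

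The effect of dog1-4 in brm-3 differed from that in Col-0 by edgeR's interaction test for 7 genes, with a log2 difference of 0.57 for RPL3A, 0.62 for PGY2, -0.57 for RPL10C, 0.76 for RPL16B, 1.28 for AT5G23900, 0.73 for AT3G24830 and 1.40 for AT1G27400. The adjusted p was 0.046 for AT5G23900 and 0.037 for AT3G24830.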

How the results depend on the processing

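Of 3218 values recomputed under alternatives, 3092 were counted as the same and 126 were not. A called value was the same if it kept its direction and call, and an uncalled value if it stayed uncalled, whatever its sign. Counts had to stay within 1.5 times, medians and count shares within the SD over libraries, and motif shares within a 95% binomial interval. No called value changed direction, and no uncalled value was called in the opposite direction. With library size alone, chosen after seeing the data, 0 members were lower in brm-3dog1-4 or dog1-4 against Col-0, in brm-3dog1-4 against dog1-4 or for the interaction, the medians were 1.68 in brm-3dog1-4 and 0.83 in dog1-4 against Col-0, 1.55 and 0.78 in brm-3dog1-4 against brm-3 and dog1-4, and 0.71 for the interaction. Members over a log2 fold change of 1 were then 17 in dog1-4 against Col-0 and 47 and 9 in brm-3dog1-4 against brm-3 and dog1-4, and 22 interactions were positive. The split of all genes was 5870 higher to 825 lower in brm-3dog1-4 and 1940 to 418 in dog1-4. Tested against a log2 fold change of 1, the counts were 15 in brm-3dog1-4 and 0 in dog1-4 against Col-0, and 11 and 0 in brm-3dog1-4 against brm-3 and dog1-4. With at least 10 counts in every library, 4 genes were over 1 in dog1-4 against Col-0, and 1 in brm-3dog1-4 against dog1-4, which was 5 with no filter. RPL10C was not called lower in brm-3dog1-4 against dog1-4 under either filter, with DESeq2, with only both groups or without both shallowest libraries, giving 0 members, nor in dog1-4 against Col-0 with only both groups (0). For brm-3 against Col-0, DESeq2 called 0 members and the fit of only both groups 2. Without both shallowest libraries, also chosen after seeing the data, 5 members were over 1 in brm-3dog1-4 against dog1-4 and 11 interactions were positive.

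Leaving out 1 library gave 45 to 47 members higher in brm-3dog1-4, 0 to 2 in brm-3, 0 to 1 lower and 4 to 10 over 1 in dog1-4 with a median of 0.54 to 0.64, 0 to 1 lower and 2 to 5 over 1 in brm-3dog1-4 against dog1-4, 1 to 11 positive interactions and 0 to 1 family sums higher in brm-3. The 1 family sum was seen without brm-3 replicate 1. Of 2519 values of named genes and families, 59 lost and 7 gained a call. Same-numbered libraries did not deviate together (correlations of -0.03 to 0.07, with 0 of 24 over 0.1, and 3 of 16 libraries closest to their own number), and with a replicate block 46 members were higher in brm-3dog1-4 and 36 in dog1-4. The promoter share with a telo box was 13.6% and that with a site II element 62.7% on the forward strand alone. The 7 rarest genes failed the filter on low counts and were left untested.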
